A study of Mus musculus with 6 samples.

Results

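Mitochondrial ribosomal protein genes were examined in cultured mouse aortic endothelial cells (MAEC) lacking Oct4, the pluripotency factor encoded by Pou5f1. The genes were those with a symbol of the form Mrpl or Mrps, a number and at most 1 letter, annotated as protein-coding, and there were 78 of them among the 54532 genes in the count table. RNA-seq libraries had been made from untreated Oct4 KO cells of female mice (3 libraries) and of male mice (3 libraries). By the labels all 6 libraries carry the endothelial-specific deletion, and sex is the labelled difference between the groups. The medium, F-12 with serum, heparin and endothelial growth factors, was shared by both sexes. The age of the mice and the Cre driver are not given in the sources used here, and wild-type cells were not analysed here. Nothing in the labels tells whether the 3 libraries per sex derive from different animals or cultures. The p-values therefore measure only the spread between these libraries, which may be technical.

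Mitochondria translate the few proteins encoded in their own DNA, all of them core subunits of the respiratory chain and ATP synthase, on a ribosome of their own. Both of its rRNAs are transcribed from mitochondrial DNA, whereas every one of its proteins is encoded in the nucleus, made in the cytosol and imported. Many of these proteins descend from bacterial ribosomal proteins and others are found in mitochondria alone. Endothelial cells draw much of their energy from glycolysis, and their mitochondria are known for signalling and biosynthesis as well as for respiration.

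Female libraries held 20404758 to 21483163 counts and male libraries 19299742 to 23064738, and a count of 0 allows up to 3 counts, or 0.145 to 0.154 CPM in female and 0.123 to 0.151 CPM in male libraries. These limits cover counting error only. CPM here are counts scaled by the effective (TMM-adjusted) library size. Pou5f1 had 0 counts in all 6 libraries, which does not tell the deletion from a gene that these cells do not use. The cell type in the labels was not borne out by its markers, since 10 of 14 endothelial markers lay under 1 CPM in all libraries, while all 9 fibroblast markers lay at or above 10 CPM. The summed endothelial markers were 147 to 174 CPM in female and 258 to 325 CPM in male libraries, and the summed fibroblast markers were 15100 to 16900 CPM in female and 7220 to 7860 CPM in male libraries. Smooth muscle markers summed to 62.4 to 67.4 CPM in female and 160 to 174 CPM in male libraries, pericyte markers to 442 to 460 CPM in female and 720 to 761 CPM in male libraries, and leukocyte markers to 70.3 to 86 CPM in female and 77.3 to 94.1 CPM in male libraries. These sums mix members of both directions. Of 14 endothelial markers 2 were called lower and 1 higher in female cells, with Eng at 92.2 CPM in female and 253 CPM in male cells and Flt1 at 57.7 CPM in female and 27.6 CPM in male cells, while Emcn, Cldn5 and Robo4 had 0 counts. Of 9 fibroblast markers 2 were lower and 6 higher, of 8 smooth muscle markers 4 were lower and 0 higher, and of 9 leukocyte markers 1 was lower and 2 higher, with Ptprc at 0 counts. Of 6 pericyte markers 2 were lower, among them Rgs5 (0.756 CPM in female and 256 CPM in male cells), and 4 higher, among them Cspg4 (108 CPM in female and 3.19 CPM in male cells). The part of these differences in the results that follow was not tested. In bulk RNA, fewer cells of a type and less RNA per cell cannot be told apart.

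Of the 78 genes, 77 passed the filter on low counts, and together they were expressed at a lower level in female than in male cells. They took 0.174%, 0.159% and 0.186% of all counts in the female libraries, against 0.279%, 0.288% and 0.271% in the male libraries. Their mean share was 0.173% ± 0.0131 in female and 0.28% ± 0.00858 in male cells (SD, n = 3 each), and the groups did not overlap. With edgeR's quasi-likelihood test and Benjamini-Hochberg adjustment over all genes, 60 of the 77 fell in female cells, 0 rose, and 17 were not called at an adjusted p of 0.05. Over all 14814 genes tested, 29.8% were called lower and 30.9% higher in female cells, 60.7% in all. Lower calls made up 31.9% of the protein-coding genes and likewise 31.9% of the genes within the same range of gene length. The median log2 fold change, female over male, was -0.59 for the 77 genes, with quartiles of -0.77 and -0.31, and -0.01 for all genes tested. The estimate was below 0 for 74 of the 77 genes. In 67 of them every female library lay below every male library, a pattern seen in 33.2% of all genes tested. Of the 77, 8 were called lower by at least 2-fold, a share close to the 9.88% of all genes tested.

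**Figure D1:**
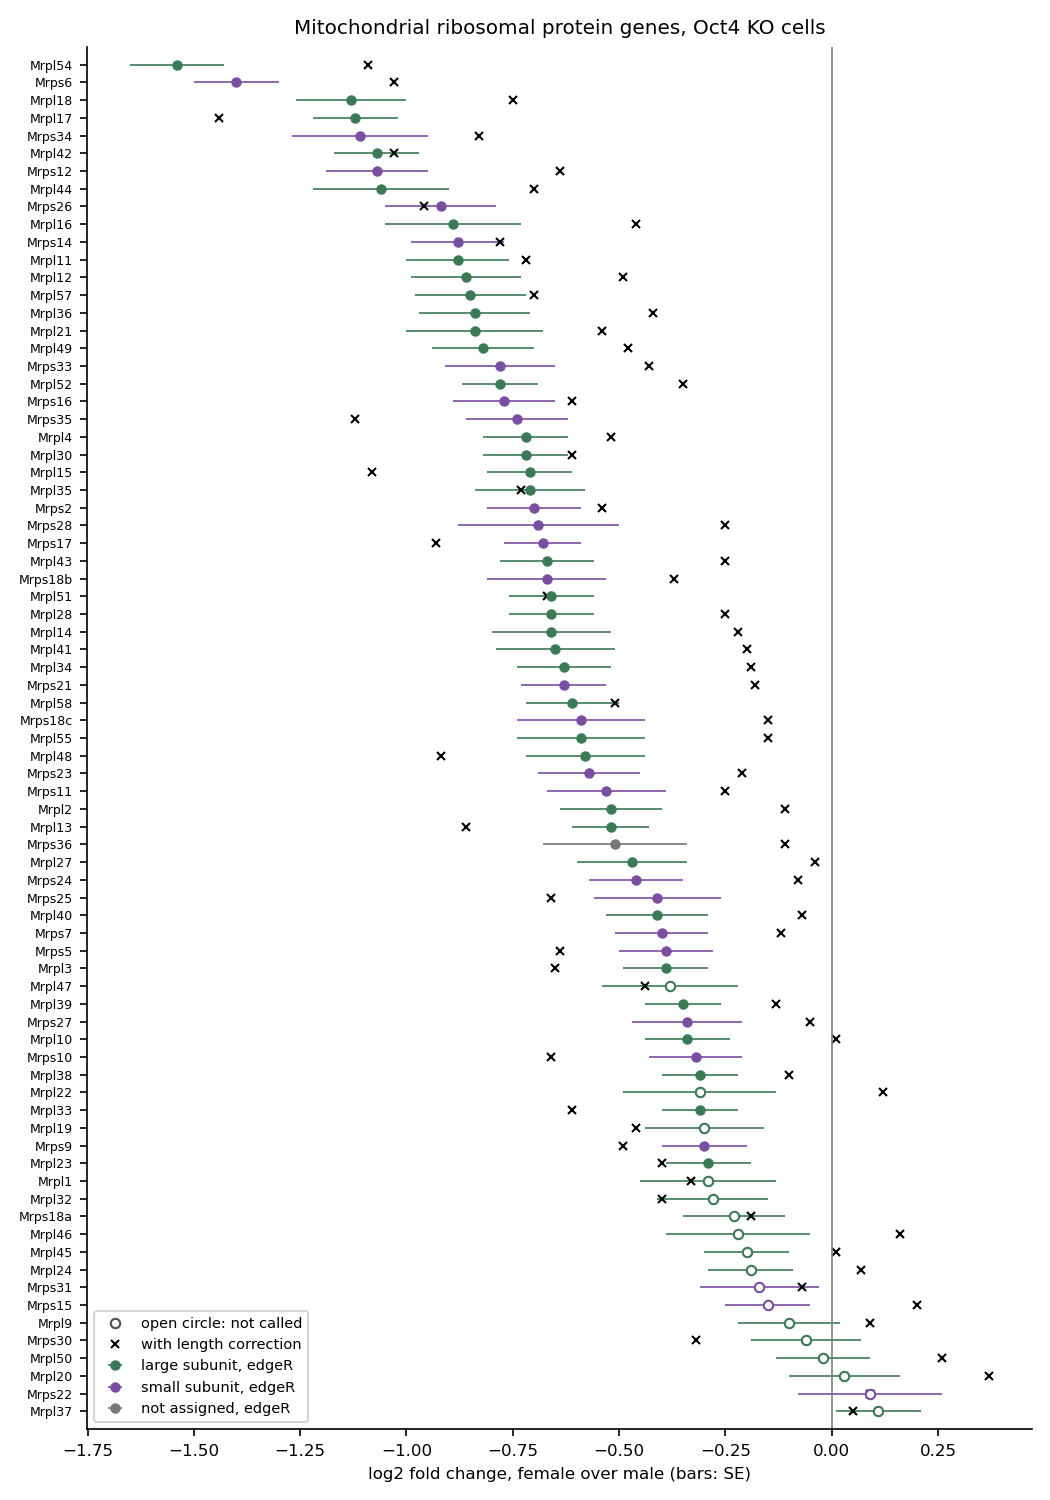
Log2 fold change, female over male, of the 77 tested mitochondrial ribosomal protein genes (circles, with SE bars; open circles were not called), coloured by subunit, with the length-corrected estimate as a cross. The circles run from -1.54 for Mrpl54 to 0.11 for Mrpl37, and 74 of 77 lie left of 0.

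Levels between genes were compared as TPM, computed from the counts and the gene lengths in the table. The 77 genes ranged from 7.35 to 208 TPM over all libraries, with a median of 34.2 TPM, against 15.3 TPM for all genes tested. The highest was Mrpl52, a mitochondria-specific protein of the large subunit, with 147, 151 and 167 TPM in female libraries and 261, 275 and 246 TPM in male libraries. Mrpl34, of bacterial descent, had 155, 137 and 172 TPM in female and 226, 226 and 251 TPM in male libraries, so that its female libraries did not lie apart from those of Mrpl52. Mrpl54, Mrps21, Mrpl2 and Mrpl43 came next, at 153, 144, 104 and 99.5 TPM over all libraries. Mrpl54, at 79.5 ± 10.9 TPM in female and 226 ± 2.44 TPM in male cells, lay below Mrps21 and Mrpl2 in female cells and above both in male cells (SD, n = 3 each). Mrps21 had 114 ± 6.45 TPM in female and 173 ± 4.56 TPM in male cells, and Mrpl2 had 86.8 ± 13.7 TPM in female and 122 ± 8.65 TPM in male cells. In female cells the gap between Mrpl54 and Mrpl2 was within their spread. The lowest genes that passed the filter were Mrpl47 at 7.35, Mrps25 at 7.53 and Mrps35 at 8.1 TPM over all libraries. The order depends on the length used, because the table gives the length of all annotated exons joined. Mrpl33, with 7326 bases in the table and 478 in its principal transcript, stood at rank 58 by the table's length and at rank 2 by the principal transcript. Across the 77 genes, Spearman's rho between the levels on both scales was 0.71.

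**Figure D2:**
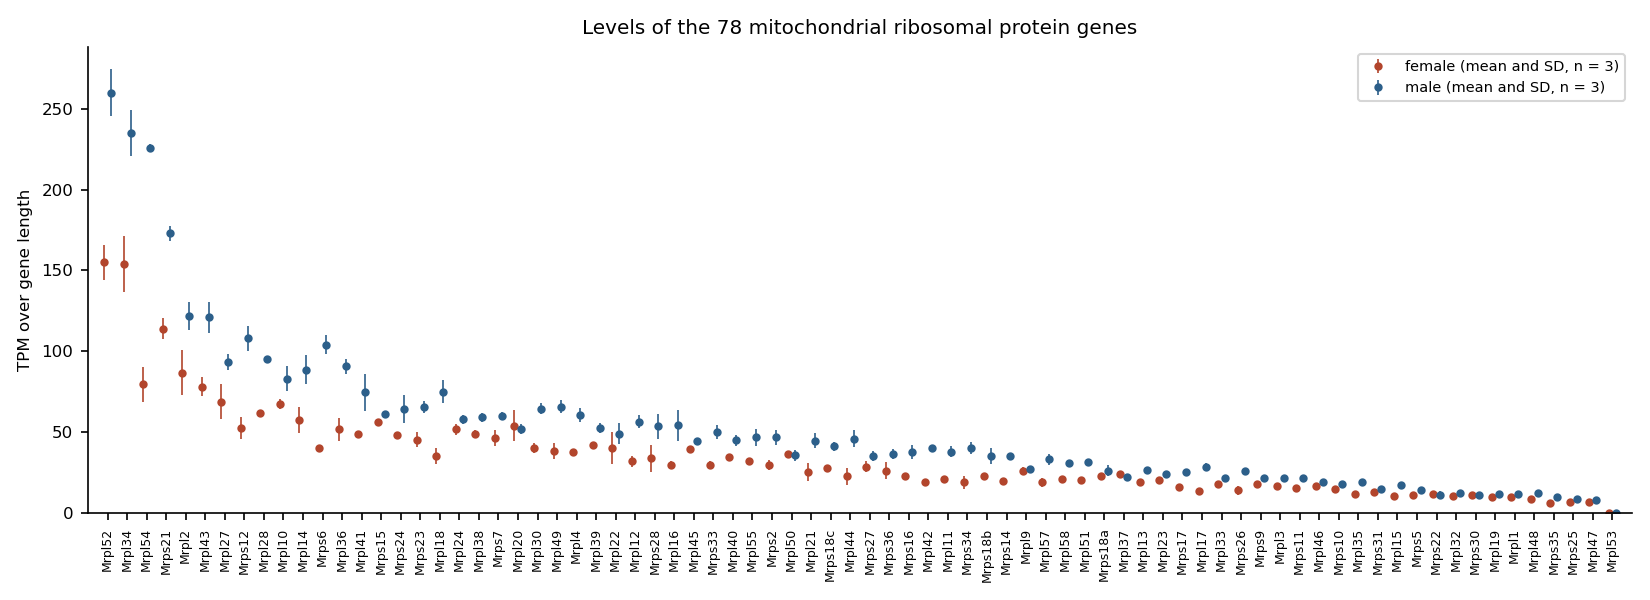
TPM over the table's gene length of the 78 genes, female beside male (points, mean; bars, SD, n = 3), ordered by the mean over all libraries. Levels fall from 155 TPM in female and 260 TPM in male cells for Mrpl52 to 0 for Mrpl53.

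The largest change was that of Mrpl54, a mitochondria-specific protein of the large subunit. It had 18.1, 20.6 and 24.7 CPM in female libraries, against 62.4, 62.8 and 59.3 CPM in male libraries. All female libraries lay below all male ones, with a log2 fold change of -1.54 ± 0.11 (SE; edgeR adjusted p = 3.52e-09). Mrps6, a small-subunit protein with a bacterial counterpart, had 19, 19.4 and 21 CPM in female libraries and 55.7, 53.2 and 48.3 CPM in male libraries. It fell by 1.40 ± 0.10 on the log2 scale (edgeR adjusted p = 3.97e-09), with groups as far apart. Of its exon bases 19.9% are shared with another annotated gene on the same strand. The other genes with the smallest adjusted p were Mrpl17 and Mrpl42, both of the large subunit, the first with a bacterial counterpart. Mrpl17 had 30.1, 31.3 and 36.2 CPM in female and 76.4, 73.3 and 62.4 CPM in male libraries (log2 fold change -1.12 ± 0.10, edgeR adjusted p = 8.38e-08). Mrpl42 had 24.2, 21.9 and 22.9 CPM in female and 46.6, 51.8 and 46.7 CPM in male libraries (log2 fold change -1.07 ± 0.10, edgeR adjusted p = 9.12e-08). In both, the female and male libraries were well separated. Mrpl18, the large-subunit relative of the bacterial protein that binds the small ribosomal RNA of that subunit, had 16.5, 13 and 17.7 CPM in female and 38.1, 35.1 and 30.4 CPM in male libraries (log2 fold change -1.13 ± 0.13, edgeR adjusted p = 1.62e-06).

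**Figure D3:**
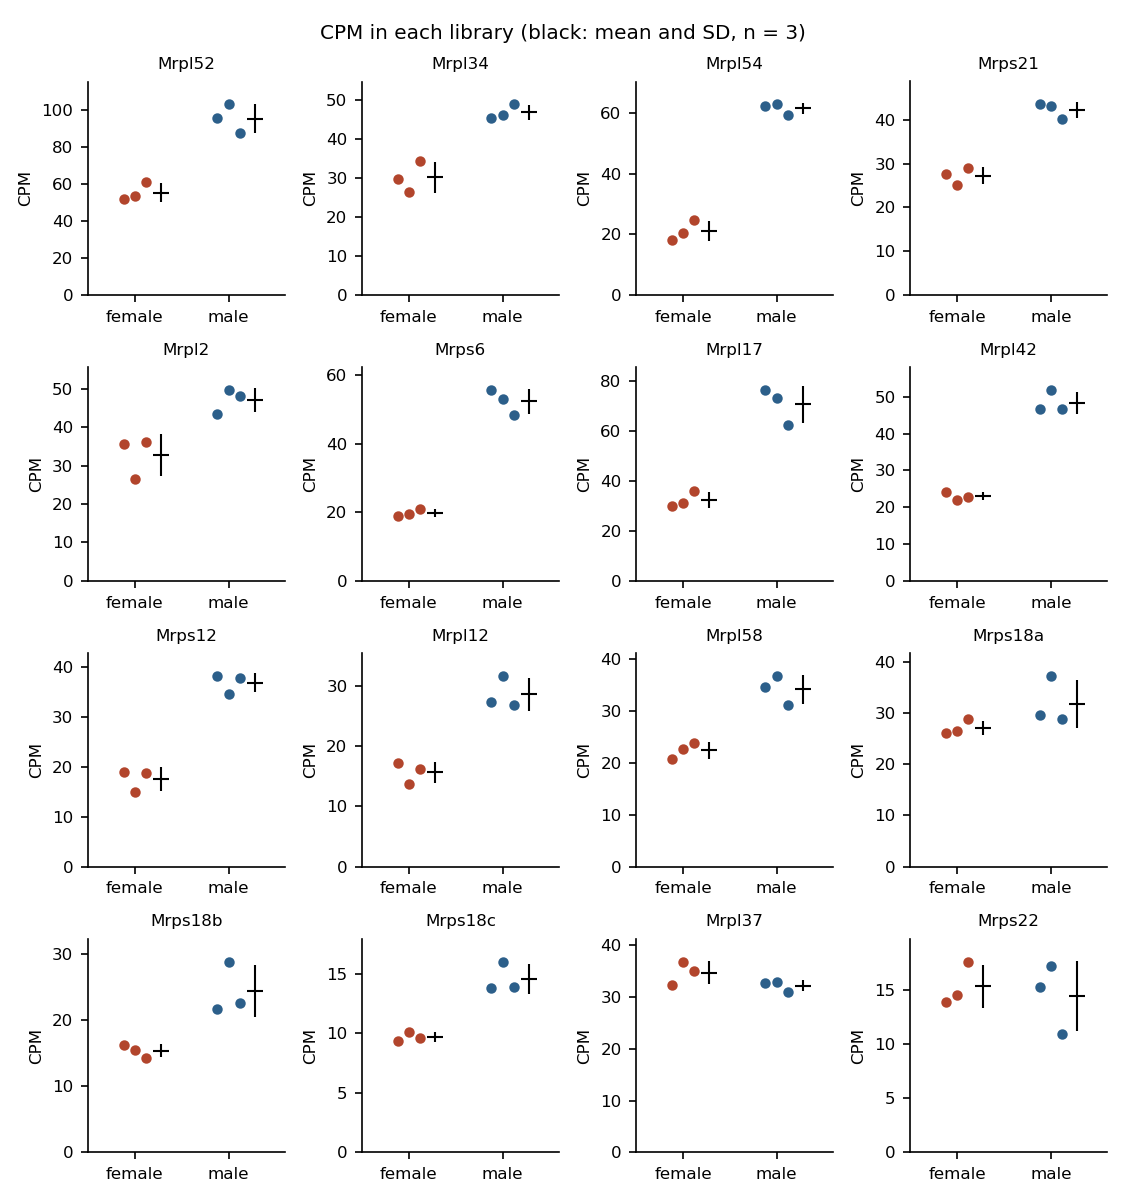
CPM of 16 mitochondrial ribosomal protein genes in each library, female left of male (points, libraries; black, mean and SD, n = 3), each with its own axis from 0. The female libraries lie below the male ones in every panel except those of Mrps18a, Mrpl37 and Mrps22; in the Mrps18a panel the highest female and the lowest male library both stand at 28.7 CPM.

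Genes of both subunits were among those that fell. Of 50 tested genes of the large subunit, 36 were called lower and 0 higher, with a median log2 fold change of -0.58. Of 26 of the small subunit, 23 were called lower and 0 higher, with a median of -0.61. Genes with a bacterial counterpart (37 of 46 lower, median -0.59) and mitochondria-specific genes (22 of 30 lower, median -0.59) had the same median. Of the relatives of bacterial S18, only Mrps18c was counted as having a bacterial counterpart. Mrps18a and Mrps18b were counted as mitochondria-specific. The genes lie on 17 chromosomes and none on the X chromosome, with 11 on chromosome 11 and 8 on chromosome 17. These are counts and medians, and no difference between the classes was tested.

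Among large-subunit genes with a known role, Mrpl12 encodes the stalk protein that recruits translation factors. It had 17.1, 13.7 and 16.1 CPM in female and 27.3, 31.6 and 26.7 CPM in male libraries (log2 fold change -0.86 ± 0.13, edgeR adjusted p = 1.9e-05). Mrpl58 is a peptidyl-tRNA hydrolase that rescues stalled ribosomes and is built into the large subunit. It had 20.7, 22.6 and 23.8 CPM in female and 34.5, 36.7 and 31.1 CPM in male libraries (log2 fold change -0.61 ± 0.11, edgeR adjusted p = 1.69e-04). Mrpl44, which has a ribonuclease III-like domain, had 14.8, 11.1 and 9.83 CPM in female and 28.3, 23.2 and 23.1 CPM in male libraries (log2 fold change -1.06 ± 0.16, edgeR adjusted p = 1.86e-05). In none of these did the sexes overlap. Mrpl2, at the peptidyl transferase centre, had 35.6, 26.4 and 36.1 CPM in female and 43.4, 49.6 and 48.1 CPM in male libraries (log2 fold change -0.52 ± 0.12, edgeR adjusted p = 0.00103). That call was lost with length correction (-0.11, adjusted p = 0.378), length and GC correction (-0.04, adjusted p = 0.754) and principal transcript length (-0.11, adjusted p = 0.367). Mrpl23, whose bacterial counterpart sits at the mouth of the exit tunnel, had 30.9, 30.9 and 33.7 CPM in female and 39.5, 42.5 and 35 CPM in male libraries. Its log2 fold change of -0.29 ± 0.10 was only just called (edgeR adjusted p = 0.0231), and the call was lost without female replicate 1 or 2 or male replicate 1 or 2, with adjusted p of 0.0834, 0.0549, 0.0667 and 0.0704. By principal transcript length its sign turned and it was not called (0.19, adjusted p = 0.0897).

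In the small subunit, Mrps12 encodes the protein of the decoding centre whose bacterial counterpart carries streptomycin resistance mutations. It had 19, 14.9 and 18.9 CPM in female and 38.3, 34.7 and 37.8 CPM in male libraries (log2 fold change -1.07 ± 0.12, edgeR adjusted p = 8.4e-07). Mrps36, first described as a ribosomal protein and now known as a component of the 2-oxoglutarate dehydrogenase complex, was assigned to neither subunit. It had 11.2, 8.15 and 13 CPM in female and 16.4, 14.3 and 15.2 CPM in male libraries (log2 fold change -0.51 ± 0.17, edgeR adjusted p = 0.0155). Its call was lost without female replicate 2 (adjusted p = 0.0758) or male replicate 1 (adjusted p = 0.0593), and also with length correction (-0.11, adjusted p = 0.566), length and GC correction (-0.17, adjusted p = 0.357) and principal transcript length (-0.04, adjusted p = 0.857).

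The family of bacterial S18 has 3 relatives in the set, which occupy separate places in the mitochondrial ribosome. Mrps18b had 16.2, 15.5 and 14.3 CPM in female and 21.6, 28.8 and 22.6 CPM in male libraries (log2 fold change -0.67 ± 0.14, edgeR adjusted p = 4.86e-04). Mrps18c had 9.32, 10.1 and 9.58 CPM in female and 13.8, 16 and 13.9 CPM in male libraries (log2 fold change -0.59 ± 0.15, edgeR adjusted p = 0.0022). Mrps18a, which despite its symbol is a protein of the large subunit, was not called, with 26.1, 26.5 and 28.7 CPM in female and 29.5, 37.2 and 28.7 CPM in male libraries (log2 fold change -0.23 ± 0.12, edgeR adjusted p = 0.104). With length correction Mrps18c was no longer called (-0.15, adjusted p = 0.386), near the -0.19 of Mrps18a (adjusted p = 0.166), while Mrps18b was (-0.37, adjusted p = 0.025). By principal transcript length none of the 3 was called, with adjusted p of 0.122 for Mrps18b, 0.607 for Mrps18c and 0.0914 for Mrps18a. Whether the 3 relatives differ in their response to sex was not tested.

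Of the 17 genes that were not called, 7 had every female library below every male one, a pattern seen in 33.2% of all genes tested. The share among all genes that were not called was not computed. Among the 7 were Mrpl47 and Mrpl45, which anchors the ribosome to the inner membrane. Mrpl47 had 9.76, 9.22 and 8.57 CPM in female and 13.8, 10 and 12 CPM in male libraries (log2 fold change -0.38 ± 0.16, edgeR adjusted p = 0.0524). It was called lower with length correction (-0.44, adjusted p = 0.0284), with length and GC correction (-0.52, adjusted p = 0.00983) and by principal transcript length (-0.49, adjusted p = 0.0158). The estimate was above 0 in 3 genes, none of them called. Mrpl37, a mitochondria-specific protein of the large subunit, had 32.3, 36.8 and 34.9 CPM in female and 32.7, 32.8 and 31 CPM in male libraries (log2 fold change 0.11 ± 0.10, edgeR adjusted p = 0.367). Mrps22, of the small subunit, had 13.9, 14.5 and 17.6 CPM in female and 15.3, 17.2 and 10.9 CPM in male libraries (log2 fold change 0.09 ± 0.17, edgeR adjusted p = 0.686). Mrpl20, whose bacterial counterpart is needed early in assembly of the large subunit, had 30.4, 22.7 and 33.4 CPM in female and 27.8, 27.6 and 29.5 CPM in male libraries (log2 fold change 0.03 ± 0.13, edgeR adjusted p = 0.874). In each of the 3 the sexes overlapped, and the sign of each estimate turned under at least 1 other scaling or without a single library. With a correction by principal transcript length, on the other hand, all 3 were called higher, at 0.42 for Mrpl37 (adjusted p = 0.00163), 0.47 for Mrps22 (adjusted p = 0.0176) and 0.49 for Mrpl20 (adjusted p = 0.00151). Mrps30, placed in the large subunit despite its symbol, had 22.4, 22 and 25.7 CPM in female and 24.1, 28 and 21.1 CPM in male libraries (log2 fold change -0.06 ± 0.13, edgeR adjusted p = 0.707). It was called lower with length correction (-0.32, adjusted p = 0.0462) and with length and GC correction (-0.50, adjusted p = 0.0062), and not by principal transcript length (-0.15, adjusted p = 0.312).

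Fold changes moved with gene length across the whole table, and mitochondrial ribosomal protein genes are shorter than most, with a median length of 2255 bases against 4012 for all genes tested. Among genes under 2000 bases, 27 of 31 mitochondrial ribosomal protein genes were called lower (median log2 fold change -0.65), against 38.2% of all genes of that length (median -0.34). Between 2000 and 4000 bases the counts were 17 of 24 (median -0.57) against 36.9% (median -0.17). From 4000 bases up they were 16 of 22 (median -0.39) against 22.2% (median 0.19). Within each range of length the mitochondrial ribosomal protein genes thus had the lower median. With a smooth trend on length removed in each library, 45 of the 77 were called lower and 1 higher, with a median of -0.40, while 30.9% of all genes were called lower and 28% higher. Of the 60 calls, 41 were kept and 19 lost, and 4 genes were newly called lower. Over all genes tested, 3584 of 4413 lower calls were kept and 824 lost, and 943 genes were newly called lower. The share of calls lost was thus larger among mitochondrial ribosomal protein genes. By range of length the corrected counts were 13 of 31 under 2000 bases (21.7% of all genes), 12 of 24 up to 4000 bases (29.2%) and 20 of 22 above (35.6%). Among the 77 genes, Spearman's rho between fold change and gene length was 0.25 without and -0.42 with the correction. The correction thus left a dependence on length of the opposite sign within the set, and the rise of these counts with length goes with it. Against principal transcript length, rho without the correction was 0.07.

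The length-corrected calls were lost for some of the shortest and most highly expressed genes. Mrps21, at 739 bases, had a log2 fold change of -0.63 without and -0.18 with the correction (edgeR adjusted p = 0.0993 with it). Mrpl34, at 607 bases, had -0.63 without and -0.19 with it (adjusted p = 0.0872). Mrpl41 (-0.65 without, -0.20 with, adjusted p = 0.21) and Mrpl55 (-0.59 without, -0.15 with, adjusted p = 0.407) also lost their calls; these 4 had the largest shifts between the fits before rounding. Mrps28 (-0.69 without, -0.25 with, adjusted p = 0.222) and Mrpl14 (-0.66 without, -0.22 with, adjusted p = 0.131) shifted by nearly as much. The one gene called higher with the correction was Mrpl20 (log2 fold change 0.37, adjusted p = 0.0112). Among genes of 4000 bases and over the median was -0.39 without and -0.66 with the correction. Mrpl17, at 7605 bases, had -1.44 with the correction (adjusted p = 5.96e-09), and Mrps35, at 8631 bases, had -0.74 ± 0.12 without (adjusted p = 6.48e-05) and -1.12 with it (adjusted p = 9.56e-07). With the principal transcript's length in place of the joined exons, a choice made after the data were seen, 40 genes were called lower and 4 higher, with a median of -0.25, against 29.8% lower and 27.4% higher over all genes. Mrpl54, Mrps6, Mrpl17, Mrpl42, Mrps12, Mrpl12, Mrpl58 and Mrpl44 were among 33 of the 77 genes called lower in every setting tried, against 21.5% of the 12661 tested protein-coding genes.

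**Figure D4:**
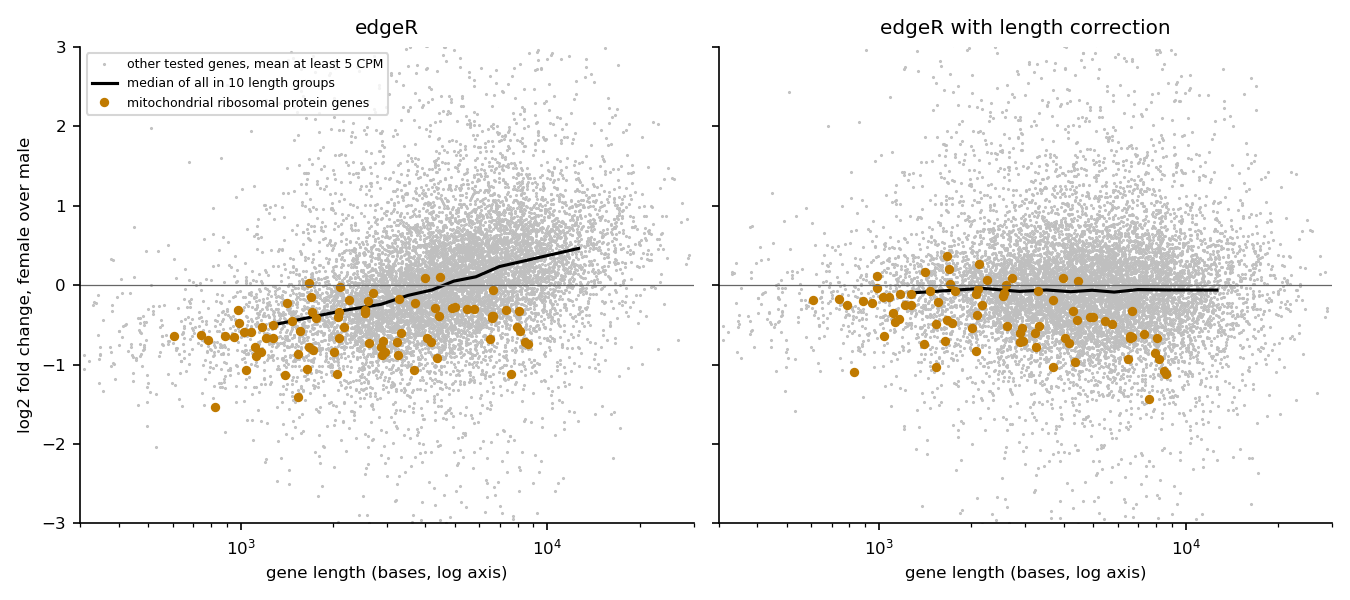
Log2 fold change, female over male, against gene length (log axis) without (left) and with (right) length correction, for mitochondrial ribosomal protein genes (orange) and other tested genes averaging 5 CPM or more (grey); the line is the median of all genes in 10 length groups. Without the correction the line climbs with length and most orange points lie under it; with it the line is flat and 45 of 77 orange genes were called lower.

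Mrpl53, a large-subunit gene of chromosome 6, had 0 counts in all 6 libraries and was not tested. The floor of 3 counts limits it to 0.154 CPM at most in a female and 0.151 CPM in a male library. Its annotated exons hold 790 bases, of which 695 (88%) are also exon of Gm42688, a longer gene model on the same strand (chr6:83101617-83109939 in mm10) that ends at the same base. Gm42688 had 17, 33 and 8 counts in female and 20, 11 and 19 in male libraries (log2 fold change 0.34, edgeR adjusted p = 0.609). The sources used here do not give how reads in exons shared by several genes were assigned, and whether this set the count of 0 was not tested.

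In all, 33 of the 78 genes share exon bases with another gene by the exons of GENCODE M21, 18 of them over at least 10% of their exon length. Mrps34 shares 77.8% (the largest overlap being with Mapk8ip3, on the opposite strand) and Mrps25 69.8% (with Nr2c2, on the opposite strand). Mrps34 had 13.9, 9.27 and 14.6 CPM in female and 27.4, 25.4 and 29 CPM in male libraries (log2 fold change -1.11 ± 0.16, edgeR adjusted p = 1e-05). Mrps25 had 14.1, 11.7 and 15.8 CPM in female and 16.4, 17.9 and 21 CPM in male libraries (log2 fold change -0.41 ± 0.15, edgeR adjusted p = 0.025), a call lost without female replicate 1 or 2 or male replicate 3 (adjusted p of 0.0571, 0.105 and 0.124). The strand setting is not given either, so such genes are uncertain. Of the 45 tested genes that share no exon base, 34 were called lower (median log2 fold change -0.63), and of the 17 that share at least 10%, 13 were (median -0.46). The table also lists 8 processed pseudogenes of mitochondrial ribosomal protein genes, with at most 81 counts in any library. Of the 2 that were tested, AC154457.3 was called lower in female cells (log2 fold change -1.14, edgeR adjusted p = 0.0106). It had 46, 29 and 18 counts in female and 66, 81 and 73 in male libraries. Mrpl48-ps was not called (0.47, edgeR adjusted p = 0.481). Whether reads were shared between pseudogenes and their parent genes was not tested.

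Some mitochondrial ribosomal protein genes stand head to head with a neighbour, and 24 of the 78 had a gene start on the opposite strand between 1000 bases upstream and 300 bases downstream of their own. The share of all protein-coding genes with such a neighbour was not computed. Of these 24 neighbours 12 were called lower and 1 higher, beside 29.8% and 30.9% of all genes tested. In 11 pairs both genes were called lower, where 21 of the 24 mitochondrial ribosomal protein genes were themselves lower. Mrpl49 starts 137 bases from Fau, which encodes a cytosolic ribosomal protein. Fau had 324 ± 34.7 CPM in female and 783 ± 53.5 CPM in male cells (SD, n = 3 each; log2 fold change -1.27, edgeR adjusted p = 1.94e-09), while Mrpl49 had a log2 fold change of -0.82 ± 0.12. Mrpl43 starts 116 bases from Twnk, the helicase of mitochondrial DNA, which was lower too, at 22.8 ± 1.65 CPM in female and 33.1 ± 2.1 CPM in male Oct4 KO cells (log2 fold change -0.53, edgeR adjusted p = 4.72e-04). Mrpl36 and Ndufs6, a subunit of respiratory complex I, were both called lower (-0.84 ± 0.13 and -0.98). Mrps12 starts 172 bases from Sars2, the mitochondrial seryl-tRNA synthetase, which did not pass the threshold and had 5.92 ± 0.236 CPM in female and 7.5 ± 0.801 CPM in male Oct4 KO cells (log2 fold change -0.34, edgeR adjusted p = 0.127). Mrpl50 was not called and its neighbour Zfp189 was higher in female cells (log2 fold change 0.94, edgeR adjusted p = 0.00122). In GENCODE M21, Mrpl43 shares 33.4% of its exon bases with Twnk and Mrpl36 2.6% with Ndufs6. The Mrpl43 model there is longer than the one counted, with 1520 exon bases against 1213. By the deposited coordinates Mrpl43 and Twnk lie 116 bases apart and do not overlap. The part of shared exons in these pairs was not tested.

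The promoters of the set were read from RefSeq (GRCm38.p6), where 69 of the 78 genes matched by symbol and had a window, and motifs were searched on both strands in the 250 bases before the start. The ETS motif CCGGAAG, which the factor GABP binds, stood in 17 of 69 windows (24.6%), against 7.1% of all promoters and 13.9% of those of tested protein-coding genes. The core GCATGCGC of the NRF1 motif stood in 8 (11.6%), against 2.3% of all and 4.6% of tested coding promoters. The YY1 motif AAGATGGCG stood in 2 (2.9%), against 0.6% of all and 1.2% of tested coding promoters. GGGCGG, bound by SP1, stood in 33 (47.8%, against 32.9% and 60%), and CCAAT in 25 (36.2%, against 34.5% and 37%). The ETS motif occurred in 13 of 52 windows of genes called lower and in 4 of 17 of the others. These are matches of letters and do not show binding. The 150 bases upstream of 5 genes are printed from 5′ to 3′ on the strand of the gene, with ETS, SP1 and CCAAT matches of either strand in capitals. Mrpl52 and Mrpl34 are shown as the most highly expressed genes and Mrpl58 as a rescue factor that fell. Mrps22 is shown as a gene that was not called and yet holds the same ETS motif. Mrps12 is shown for the short stretch between it and Sars2, with 3 CCAAT matches. All but Mrps12 hold an ETS match in these 150 bases, against 24.6% of the 69 windows of 250 bases, so the printed genes are not typical of the set. Only stretches of 150 bases free of annotated exons were considered, which left out many of the 69 genes. Among the stretches considered, those of Mrpl20, Mrpl45, Mrps2 and Mrps23 hold no match to any of the motifs and are not printed.
Mrpl52, chr14:54426759-54426908, plus strand: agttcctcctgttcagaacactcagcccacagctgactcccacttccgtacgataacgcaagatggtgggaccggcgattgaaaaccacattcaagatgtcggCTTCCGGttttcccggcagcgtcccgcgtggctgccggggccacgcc
Mrpl34, chr8:71464776-71464925, plus strand: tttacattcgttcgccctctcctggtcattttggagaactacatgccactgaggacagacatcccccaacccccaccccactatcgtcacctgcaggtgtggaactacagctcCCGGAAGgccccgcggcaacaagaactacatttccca
Mrpl58, chr11:115403602-115403751, plus strand: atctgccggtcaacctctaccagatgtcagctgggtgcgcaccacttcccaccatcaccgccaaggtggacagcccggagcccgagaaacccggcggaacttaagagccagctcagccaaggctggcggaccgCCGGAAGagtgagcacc
Mrps22, chr9:98601680-98601829, minus strand: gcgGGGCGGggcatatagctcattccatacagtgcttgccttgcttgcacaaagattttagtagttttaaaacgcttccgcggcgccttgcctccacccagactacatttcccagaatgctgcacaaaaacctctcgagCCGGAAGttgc
Mrps12, chr7:28741822-28741971, minus strand: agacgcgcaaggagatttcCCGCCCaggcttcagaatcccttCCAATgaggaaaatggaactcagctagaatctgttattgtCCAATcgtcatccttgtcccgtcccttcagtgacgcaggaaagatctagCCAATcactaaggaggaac
In Mrpl34, Mrpl58 and Mrps22 the ETS match reads CCGGAAG on the printed strand, and in Mrpl52 it reads CTTCCGG, the other strand. Mrps22 (log2 fold change 0.09) and Mrpl58 (-0.61) both hold it, close to the start.

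Other genes of mitochondrial translation were taken from lists by role. Of 5 ribosomal proteins of mitochondria with other symbols, 3 were lower in female cells, namely Gadd45gip1 (13.1 ± 2.07 CPM in female cells, 27.5 ± 0.967 CPM in male Oct4 KO cells; log2 fold change -1.07, edgeR adjusted p = 3.26e-06), Chchd1 (-0.80) and Aurkaip1 (-0.42), while Dap3 (-0.12) and Ptcd3 (-0.09), both of the small subunit, were not called. With length correction Dap3 (-0.37, adjusted p = 0.00127) and Ptcd3 (-0.36, adjusted p = 0.00208) were called lower and Aurkaip1 was not called (-0.08, adjusted p = 0.45). Of 28 assembly and rRNA modification genes, 15 were lower and 2 higher (median log2 fold change -0.41). Those with the smallest adjusted p were Rbfa, an assembly factor of the small subunit (-0.92), Rpusd4, a pseudouridine synthase (-0.96), and Mpv17l2 (-0.75). The 2 that rose were Nsun4 (0.53), an rRNA methyltransferase, and Mettl15 (0.92), an rRNA methyltransferase of the small subunit. Of 15 tested translation factors, 6 were lower and 1 higher (median -0.24), with the recycling factor Mrrf (-0.91), the exchange factor Tsfm (-0.75) and the elongation factor Tufm (-0.32) lower, and the elongation factor Gfm1 (0.24) higher. Tufm (-0.05, adjusted p = 0.69) and Gfm1 (0.19, adjusted p = 0.095) were not called with length correction. Of 20 genes that charge mitochondrial tRNAs, 6 were lower and 2 higher (median -0.10), close to the share of all genes called lower. Of 10 genes of mitochondrial DNA transcription and replication, 6 were lower and 1 higher (median -0.47), among them the packaging factor Tfam (-0.77) and the polymerase Polrmt (-0.57). Of 21 tested import genes, 12 were lower and 1 higher (median -0.43), the higher one being the matrix chaperone Hspa9 (0.33). With length correction 4 genes of mitochondrial DNA transcription and replication were lower and 1 higher (median -0.20). For import genes the corrected counts were 8 lower and 2 higher (median -0.24). They were 14 and 2 for assembly and rRNA modification, 5 and 1 for translation factors, and 9 and 2 for genes that charge tRNAs. Over all genes 30.9% were lower and 28% higher with that correction.

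The mitochondrial rRNAs, the partners of these proteins in the ribosome, had the opposite direction. mt-Rnr2, the rRNA of the large subunit, stood at 450 ± 44.5 CPM in female and 219 ± 19.3 CPM in male cells (SD, n = 3 each; log2 fold change 1.04 ± 0.09, edgeR adjusted p = 3.24e-08). mt-Rnr1, of the small subunit, stood at 111 ± 12.6 CPM in female and 86 ± 4.68 CPM in male Oct4 KO cells (log2 fold change 0.37 ± 0.09, edgeR adjusted p = 0.00207). These RNAs were captured on poly-T beads, so that their level here depends on how much of each was retained, and genes of mitochondrial DNA have nuclear copies. Of 12 tested proteins encoded in mitochondrial DNA, 4 were lower and 1 higher (median -0.19). With length correction 1 was lower and 6 higher (median 0.24), and with length and GC correction 2 were lower and 3 higher (median -0.06). Among the 4, mt-Co3, mt-Nd3 and mt-Co2 had group means of 10.3 to 32.9 CPM, far below mt-Co1 (8950 CPM in female and 8180 CPM in male cells). The fourth, mt-Nd6, had 1020 CPM in female and 1320 CPM in male cells. The list of nuclear genes of oxidative phosphorylation holds subunits and also the assembly factors Sdhaf1, Sdhaf2, Sdhaf3 and Sdhaf4. Of its 84 tested genes 72 were lower and 1 higher (median -0.64), and of 82 tested cytosolic ribosomal proteins 81 were lower and 0 higher (median -0.89). With length correction those counts were 57 lower and 6 higher (median -0.39), and 76 lower and 0 higher (median -0.61). Cytosolic ribosomal proteins have many pseudogenes and are uncertain to that extent. No difference between these lists and the mitochondrial ribosomal proteins was tested.

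**Figure D5:**
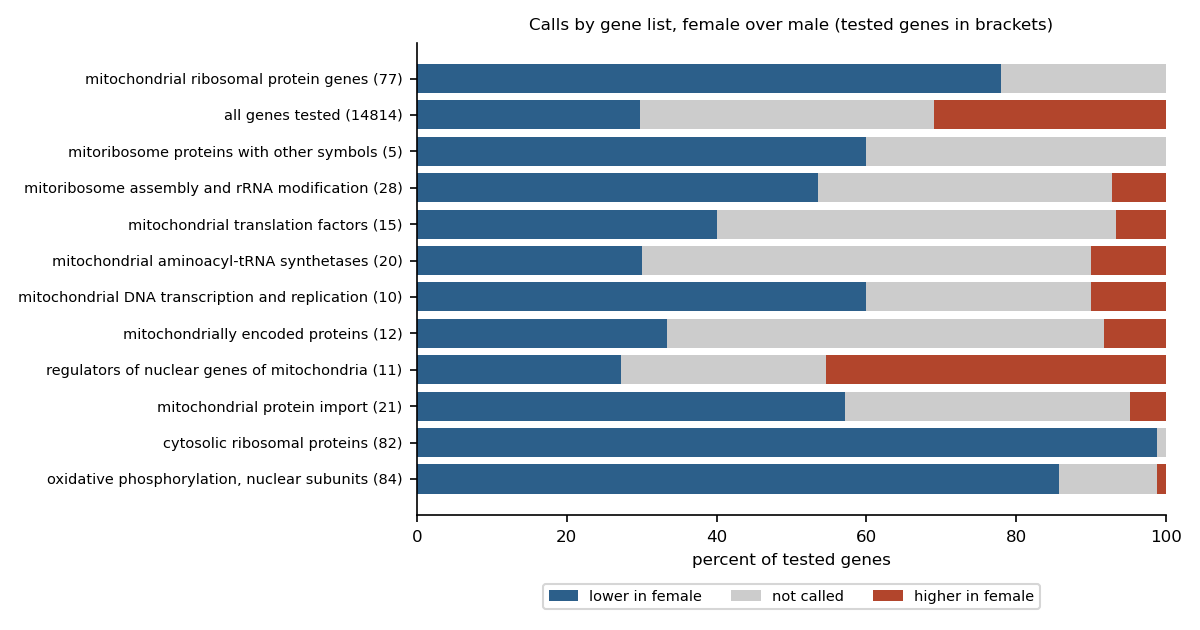
Percent of the tested genes of each list that were called lower, not called or called higher in female cells (edgeR adjusted p under 0.05), with the number tested in brackets. Of the mitochondrial ribosomal protein genes 60 of 77 were called lower, against 29.8% of all 14814 genes, and of the 11 regulators 3 were lower and 5 higher.

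Of 11 regulators of nuclear genes for mitochondrial proteins, 3 were lower and 5 higher. Ppargc1a, a coactivator that promotes mitochondrial biogenesis, was at 15.3 ± 3.48 CPM in female and 0.408 ± 0.272 CPM in male cells (SD, n = 3 each; log2 fold change 5.20 ± 0.34, edgeR adjusted p = 7.95e-10). Gabpa, the DNA-binding subunit of GABP, was also higher, at 79.3 ± 0.868 CPM in female and 60.1 ± 8.78 CPM in male Oct4 KO cells (log2 fold change 0.40, edgeR adjusted p = 0.0024). Nrf1 was lower, at 28.6 ± 0.796 CPM in female and 37.8 ± 5.62 CPM in male Oct4 KO cells (log2 fold change -0.40, edgeR adjusted p = 0.00614). With length correction Ppargc1a (4.94) and Nrf1 (-0.84) were called in the same direction, and Gabpa was not called (adjusted p = 0.0534).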

How the data were processed

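The 6 libraries of Oct4 KO cells comprised 3 per sex, grouped by the sample titles. Poly-A RNA was selected on poly-T beads and primed with random hexamers, per the labels' protocols. The submitters' processing notes name HISAT2 2.0.5, featureCounts 1.5 and the build mm10. The strand setting and the treatment of multi-mapping reads are not given in the sources used here. The authors deposited raw read counts per gene, not normalised, with gene lengths and coordinates; 0 rows lacked a gene name and 0 columns belonged to other samples. From the deposited counts, edgeR 4.0.16 in R 4.3.3 was fitted on the whole table (filterByExpr by group, TMM, glmQLFit, glmQLFTest, sex as the only term; two-sided, Benjamini-Hochberg adjustment, called at adjusted p under 0.05). The SE was obtained as the absolute estimate over the square root of F.

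Length correction used a smooth trend of log2 counts on the table's gene length per library as an offset. GENCODE M21 gave exons, GC content and principal transcripts; 73 of the 78 genes had the same coordinates there. Alternatives were other scalings, DESeq2 1.42.0, limma-voom 3.58.1, no filter, protein-coding genes only, length and GC corrections, a replicate block and leaving out each library. The edgeR, DESeq2 and voom fits were tested on simulated data. Libraries of a sex differed by more than sampling noise, so each was counted. The members and lists were chosen with earlier results of these data known. Named genes were those highest and lowest in TPM, with the smallest adjusted p or largest changes, the largest losses with length correction, the untested gene, the S18 relatives, and genes picked by role. The genes with overlapping exons, head-to-head neighbours, pseudogenes, Mrpl33, Mrpl45, Mrps28, Mrpl14, Gabpa and Nrf1 were named after their values were seen. So were Mrps15 and the other genes listed only for a turned sign.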

Additional observations from a re-analysis of the deposited data

How the results depend on the processing

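Counts of mitochondrial ribosomal protein genes called lower were 60 with RLE size factors, DESeq2, limma-voom and no low-count filter, 61 with protein-coding genes only, 66 with upper quartile scaling and 68 with total counts only, and all 60 calls were kept in each of these; of all genes, 29.8% were called lower in the fit reported, 33.7% with upper quartile scaling and 35.7% with total counts. Leaving out 1 library at a time gave 56 to 61, with medians of -0.63 to -0.53, and 54 genes were called lower in all 6 such fits and with all libraries (26.2% of tested protein-coding genes). The median was -0.70 with total counts only, which moved the median of all genes to -0.13; -0.40 with length correction, -0.44 with length and GC correction and -0.25 by principal transcript length. Genes called higher numbered 1, 2 and 4 under these corrections. The sexes' replicate numbers did not pair the libraries (correlations of same-numbered deviations of -0.02, -0.11 and -0.16); with a replicate block 60 genes were called lower, and with block and length correction the median was -0.39, with 44 lower and 1 higher. Nuclear oxidative phosphorylation genes called higher, 1 in the fit reported, numbered 6 with length, 4 with length and GC, 7 with block and length, 8 with principal transcript correction, and 1 to 2 without single libraries.

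Signs turned for the genes below, and the cause was not tested. Mrpl20 had log2 fold changes of -0.05 (upper quartile scaling), -0.09 (total counts), and -0.01, -0.09 and -0.01 without female replicate 1, female replicate 3 and male replicate 2 (0.17 without female replicate 2). Mrpl37 had -0.01 and Mrps22 -0.03 with total counts, Mrps22 also -0.03 without female replicate 3 and -0.09 without male replicate 3 (0.21 without male replicate 2), and Mrps30 0.03 without male replicate 2. By principal transcript length Mrpl23 had 0.19, Mrps18a 0.22, Mrpl33 0.20, Mrps10 0.10, Mrps9 0.03 and Mrpl38 0.02, none of them called. Mrpl10 had 0.01 with length and 0.05 with length and GC correction. Of these 7 all but Mrps18a were called lower in the fit reported. Mrps15 was not called there (-0.15, edgeR adjusted p = 0.204). It was called higher with length and GC correction (0.26, adjusted p = 0.0207) and by principal transcript length (0.29, adjusted p = 0.0144). Other genes not called in the fit reported turned by principal transcript length without a call. Among them were Mrpl9 (0.18), Mrpl46 (0.17), Mrpl22 (0.16), Mrpl24 (0.16), Mrpl50 (0.14) and Mrps31 (0.13). Mrpl47 was called lower under upper quartile scaling (adjusted p = 0.0211), total counts (0.0145), protein-coding genes only (0.0487), block and length correction (0.0357) and without male replicate 2 (0.0149), beside the corrections given with its values, and Mrps18a with the first 2 (0.0341 and 0.0172). Differences about as large as the SEs given could not be called with 3 libraries per sex.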
